A study of Homo sapiens with 6 samples.

Results

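The 45S ribosomal RNA units are the genes from which the RNA of both ribosomal subunits is made. The 10 rows described here are RNA45SN1, RNA45SN2 and RNA45SN3, the whole units, RNA18SN1, RNA18SN2 and RNA18SN3, RNA28SN1, RNA28SN2 and RNA28SN3, and RNA5-8SN2, out of 38167 rows of the deposited table of counts. They were picked by symbol, with their counts and their difference between the conditions already known, so their values are given as a description, with no test. RNA5-8SN1 and RNA5-8SN3, the 5.8S rows of the other units, are given beside them to complete each unit. RNA came from small extracellular vesicles in the medium of spheroids formed by liquid overlay and held to day 14 in Matrigel, a basement membrane gel from a mouse tumour. The spheroids were of Cal27, an established human cell line from a squamous carcinoma of the tongue. Stiff libraries, 3 in number, came from spheroids in 12 mg/mL Matrigel, and soft libraries, also 3, from spheroids in 3 mg/mL Matrigel. Stiffness, the amount of Matrigel protein and the amount of anything else in the gel changed together and cannot be told apart. Whether any reads came from the mouse gel was not tested. All 6 libraries share the cell line and were made from total RNA of vesicles trapped by insulator-based dielectrophoresis. The titles name the libraries EV mRNA, EV for extracellular vesicle. Whether ribosomal RNA had been depleted is not stated in the labels.

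In human cells RNA polymerase I transcribes each 45S unit in the nucleolus as a single long RNA. External spacers flank it, internal spacers separate 18S from 5.8S and 5.8S from 28S, and nucleases cut the spacers away and degrade them. 18S goes into the small ribosomal subunit, where the messenger is decoded, and 5.8S and 28S go into the large subunit, where peptide bonds form. Cells therefore hold far more mature ribosomal RNA than spacer RNA, and mature ribosomal RNA is a common part of vesicle RNA.

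Libraries held 2697502 to 2977837 counts in stiff and 2445498 to 2545385 in soft. All ribosomal RNA rows together took 20.02% to 22.9% of counts in stiff and 2.97% to 8.87% in soft, and within the soft group soft replicate 3 was highest. The 13 mitochondrial messenger genes differed the other way, with 0.162% to 0.201% of counts in stiff and 1.48% to 1.81% in soft. Whether they have a part in the difference of ribosomal RNA was not tested. All 9 markers of squamous epithelium had a count in every library, with a median of 67.3 counts a marker. So had all markers of the other lists below, and 97.5% to 97.9% of all rows had a count in each library. Nothing is read from this detection. The 5 fibroblast markers had a median of 81.8 and the 4 leukocyte markers 64.8, and medians were 111 for 3 endothelial and 35.5 for 3 erythroid markers, so these lists did not set the labelled cell type apart. Summed squamous markers stood at 242 to 262 CPM (counts scaled to a common library size) in stiff and 228 to 234 CPM in soft, and fibroblast markers at 187 to 210 CPM in stiff and 186 to 199 CPM in soft. In bulk samples such as these, fewer vesicles with an RNA and less of it in each vesicle cannot be told apart.

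The 3 units lie on chromosome 21, unit 1 (RNA45SN1) at 8433222 to 8446572, unit 2 (RNA45SN2) at 8205988 to 8219302 and unit 3 (RNA45SN3) at 8389035 to 8402343 on GRCh38. RefSeq gives unit 1 a length of 13351 bases, unit 2 13315 and unit 3 13309. 18S covers 1869 bases in every unit and 5.8S 157, while 28S covers 5066, 5054 and 5055 bases in units 1, 2 and 3. The spacers together take 6259, 6235 and 6228 bases, or 46.8% to 46.9% of a unit. Most of the spacer length is the 5′ external spacer before 18S, at 3654, 3643 and 3631 bases.

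**Figure D1:**
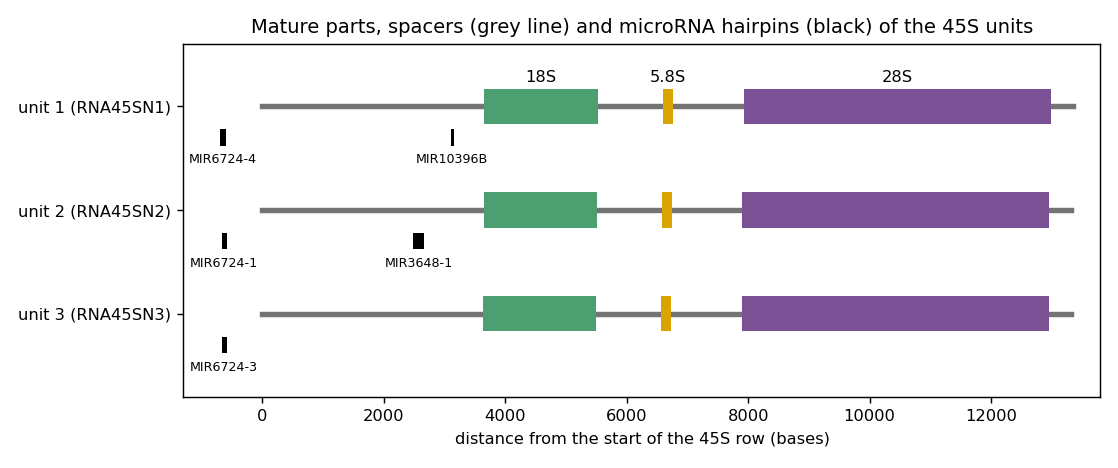
The 3 units drawn to scale, with distance from the start of the 45S row in bases on the horizontal axis, mature parts as boxes, spacers as a grey line and microRNA hairpins with a row of their own in black. The units have nearly the same layout, with MIR10396B inside the 5′ spacer of unit 1, MIR3648-1 inside that of unit 2, and a copy of MIR6724 before each start.

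The copies are so alike that many reads cannot be placed in 1 of them. The 5.8S sequence is shown because it is the mature part with the smallest difference between the conditions. GENCODE release 29 gives 153 bases of it in each of the 3 units, at chromosome 21 positions 8439823 to 8439975 for unit 1, 8212572 to 8212724 for unit 2 and 8395607 to 8395759 for unit 3, all on the plus strand of GRCh38. The 3 copies are identical, as is another copy on chromosome 21 outside the units, and no base is marked below.
5.8S of units 1, 2 and 3: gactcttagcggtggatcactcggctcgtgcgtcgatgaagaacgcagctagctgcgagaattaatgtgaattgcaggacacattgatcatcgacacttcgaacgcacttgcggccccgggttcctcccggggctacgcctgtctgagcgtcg
A read of 61 bases that lies wholly inside this sequence matches every copy equally, and the labels do not say how such reads were counted. The hairpins below are shown because they lie in or beside the units and have counts of their own, so they report on sequence outside the mature parts. Capitals mark the mature microRNA arms in the RefSeq miRNA table (GRCh38.p14, plus strand), which held 3 of the 6 hairpins at the units.
MIR10396B, inside the 5′ external spacer of unit 1, at chr21:8436324-8436374: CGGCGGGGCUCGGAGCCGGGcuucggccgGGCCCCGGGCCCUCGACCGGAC
MIR6724-4, before the start of unit 1, at chr21:8432530-8432621: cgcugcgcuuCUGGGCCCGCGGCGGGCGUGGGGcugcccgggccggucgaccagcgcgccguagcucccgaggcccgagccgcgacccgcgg
G and C make up 86.3% of the MIR10396B hairpin and 83.7% of the MIR6724-4 hairpin, against 57.5% of the 5.8S sequence.

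Counts of the whole units were higher in every stiff than in every soft library. RNA45SN1 had 104864, 104149 and 121230 counts in stiff replicates 1, 2 and 3, against 15121, 21765 and 42202 in soft replicates 1, 2 and 3. RNA45SN2 had 101137, 99906 and 116363 counts in stiff, against 13677, 19976 and 40443 in soft. RNA45SN3 had 92520, 90564 and 106981 counts in stiff, against 12540, 17613 and 36092 in soft. Stiff replicate 3 was the highest and soft replicate 1 the lowest in every unit, and the groups did not overlap. Over all 31074 genes tested, edgeR called 140 (0.451%), 89 of them higher in stiff (0.286%) and 51 lower (0.164%); since the rows were chosen with this contrast known, nothing is read from a count of them. Scaled by TMM, a factor that sets the middle of all genes equal between libraries, the units averaged 42766 ± 3515, 41107 ± 3398 and 37569 ± 3367 CPM in stiff for RNA45SN1, RNA45SN2 and RNA45SN3, against 9781 ± 5437, 9167 ± 5383 and 8196 ± 4771 CPM in soft (SD, n = 3 each). The log2 fold changes of stiff over soft fitted by edgeR were 2.13, 2.16 and 2.20 for RNA45SN1, RNA45SN2 and RNA45SN3.

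The 45S rows summed to 11.1%, 10.2% and 11.6% of all counts in the stiff libraries, against 1.69%, 2.35% and 4.66% in the soft ones. The widest 95% Clopper-Pearson interval of these shares reached 0.0375 percentage points to a side, which covers counting error only. Reads of a mature part were counted in its own row and in the 45S row, so a total of all counts holds them more than a single time. With the rows of the mature parts taken out of the total, the share was 12.2% ± 0.898 in stiff and 2.99% ± 1.66 in soft (SD, n = 3 each). A read counted in several units would still enter this total more than a single time. In that form the ratio of stiff to soft was 4.09, against 3.77 over all counts.

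18S and 28S carried the difference. RNA18SN1 had 25123, 25333 and 28857 counts in stiff, against 3271, 4120 and 9828 in soft. RNA18SN2 had 31814, 31543 and 35646 counts in stiff, against 3867, 5058 and 12658 in soft. RNA18SN3 had 27441, 27270 and 31385 counts in stiff, against 3614, 4317 and 10692 in soft. Every stiff library stood above every soft library in all 3 rows of this small subunit RNA, and the log2 fold changes were 2.27, 2.26 and 2.27 for RNA18SN1, RNA18SN2 and RNA18SN3.

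28S, the RNA that holds the peptidyl transferase centre, had the widest gap. RNA28SN1 had 76434, 75166 and 88938 counts in stiff, against 7634, 12353 and 27544 in soft. RNA28SN2 had 66683, 65312 and 77711 counts in stiff, against 6555, 10824 and 23912 in soft. RNA28SN3 had 62597, 60648 and 72889 counts in stiff, against 6009, 9623 and 21926 in soft. The groups were again apart in all 3 rows, with log2 fold changes of 2.41 for RNA28SN2, 2.45 for RNA28SN3 and slightly less than either for RNA28SN1. Summed over the units, 28S stood at 83714 ± 7830 CPM in stiff and 15653 ± 10644 CPM in soft, a ratio of 5.35, and 18S at 34244 ± 2468 CPM in stiff and 7114 ± 4697 CPM in soft, a ratio of 4.81 (SD, n = 3 each). Soft replicate 3 weighed on these ratios: leaving it out gave 8.68 for 28S and 7.75 for 18S, and 6.62 in place of 4.47 for 45S.

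5.8S, which pairs with 28S in the large subunit, differed by far less. RNA5-8SN2 had 193, 302 and 282 counts in stiff, against 105, 140 and 144 in soft. RNA5-8SN1 had 187, 245 and 216 counts in stiff, against 114, 142 and 149 in soft. RNA5-8SN3 had 213, 275 and 298 counts in stiff, against 130, 137 and 184 in soft. In each row the lowest stiff library stood above the highest soft one, by a small margin in RNA5-8SN3. The log2 fold changes were 1.07, 0.75 and 0.87 for RNA5-8SN2, RNA5-8SN1 and RNA5-8SN3. Summed, 5.8S stood at 285 ± 35.8 CPM in stiff and 153 ± 25.9 CPM in soft (SD, n = 3 each), a ratio of 1.86, or 2.04 with soft replicate 3 left out.

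All 10 rows passed the filter on low counts and all had a log2 fold change above 0, with a median of 2.26. Over all genes tested the median was −0.00484 and 49.1% were above 0. Since the rows were chosen with this contrast known, nothing is read from these counts of rows. The 45S, 18S and 28S rows were the 9 rows with the highest mean count in the table and the 9 with the highest log2 fold changes.

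**Figure D2:**
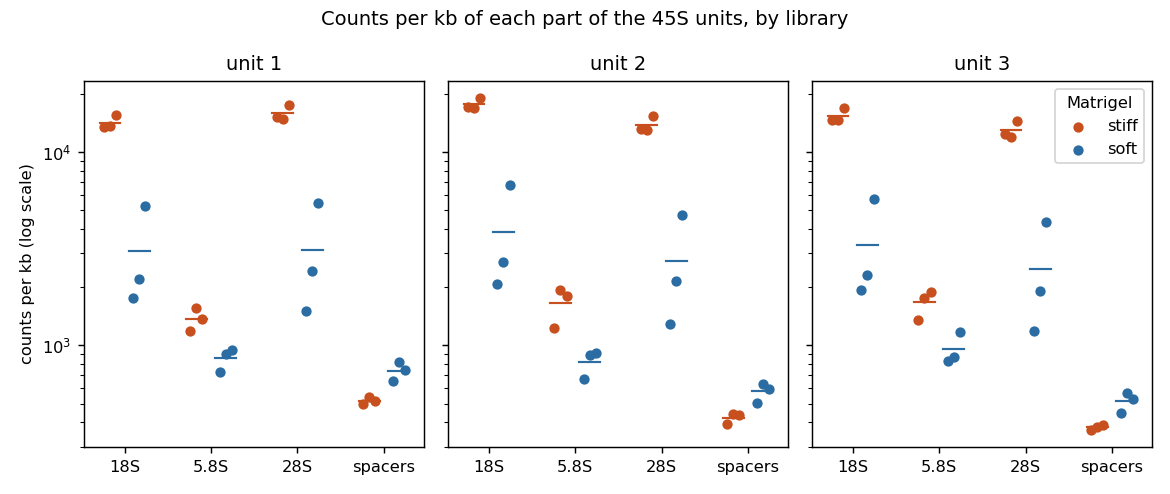
Counts per kb of each part on a log axis, by unit, with 1 point for each library (replicates 1 to 3 from left to right, stiff left of soft) and a line at the group mean. 18S and 28S stand highest in stiff, 5.8S is nearer to the spacers, and the spacers alone stand lower in stiff than in soft.

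Counts in the spacers did not share this difference. They were taken as the 45S count less the 18S, 5.8S and 28S counts of the same unit, which leaves reads that touch no mature part. The spacers of unit 1 held 3120, 3405 and 3219 counts in stiff, against 4102, 5150 and 4681 in soft. Those of unit 2 held 2447, 2749 and 2724 counts in stiff, against 3150, 3954 and 3729 in soft. Those of unit 3 held 2269, 2371 and 2409 counts in stiff, against 2787, 3536 and 3290 in soft. Every stiff library stood below every soft library in each unit. Together they stood at 3199 ± 23.03 CPM in stiff and 4224 ± 476 CPM in soft (SD, n = 3 each), a ratio of 0.757 that ranged from 0.712 to 0.790 when each library was left out in turn. Relative to counts outside ribosomal RNA the ratio was 0.761. Before the starts of units 1, 2 and 3, raw counts of MIR6724-4, MIR6724-1 and MIR6724-3 had ratios of 0.692, 0.887 and 0.671. Raw spacer counts of these units had ratios of 0.699, 0.731 and 0.733. The 92-base hairpin rows held means of 75.3 to 101 raw counts in stiff and 112 to 146 in soft, not scaled by length. The spacers held 377 to 519 counts per kb in stiff and 515 to 742 in soft. Scaled to the same length, these hairpin rows stood above the spacers in both groups. Rows so short also hold reads that reach over their ends. CDC27P9 and CDC27P10, between the units, had ratios of 1.05 and 1.03. CDC27P9 held means of 1192 counts in stiff and 1132 in soft over 3844 bases. CDC27P10 held 1370 and 1334 over 8442 bases. How much of the spacer counts came from 45S RNA was not tested.

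Spacer reads thus made up a small share of the units in stiff and a large one in soft. In the sum of the units they were 2.62%, 2.89% and 2.42% of the 45S counts in stiff, against 24.3%, 21.3% and 9.85% in soft. The low value of soft replicate 3 went with its high mature counts and not with fewer spacer reads, since its 11700 spacer counts lay between the 10039 and 12640 of the other soft libraries. By unit the share averaged 2.97% ± 0.307 and 2.44% ± 0.183 in stiff for units 1 and 3, against 20.6% ± 8.44 and 17.1% ± 7.03 in soft (SD, n = 3 each), with unit 2 between them. The widest 95% Clopper-Pearson interval of a unit in 1 library reached 0.738 points to a side.

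**Figure D3:**
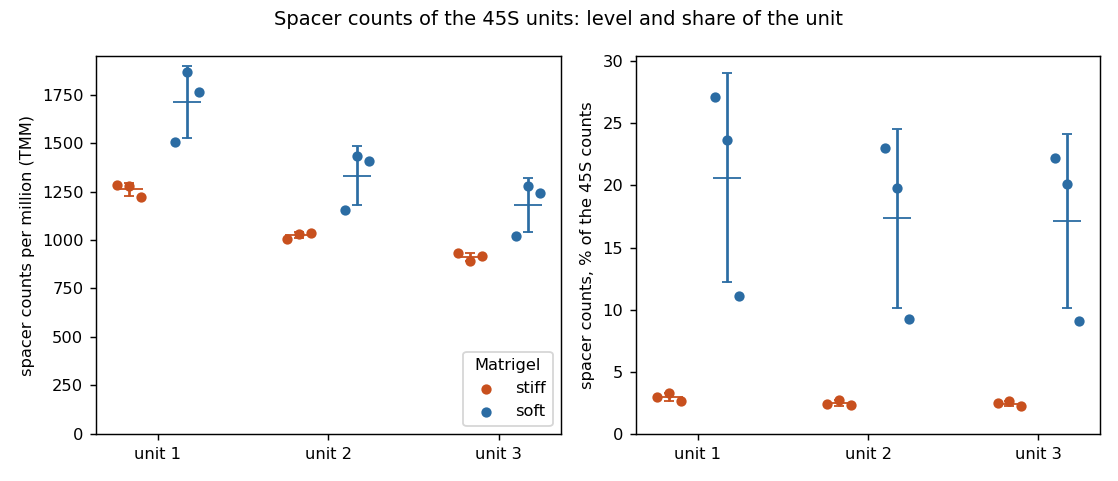
Spacer counts of each unit as TMM-scaled CPM (left) and as a percentage of the 45S counts of the unit (right), with 1 point for each library, stiff left of soft, and the mean with its SD (n = 3). In stiff the 3 libraries lie close together and below all soft libraries in both panels, and soft replicate 3, the right-hand point of its group, has the lowest soft share at 9.12% to 11.1%.

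Replicates of the soft group differed in 18S and 28S and far less in 5.8S and the spacers. The highest soft library had 3.09 times the 18S counts of the lowest and 3.63 times the 28S counts, but 1.37 times the 5.8S counts and 1.26 times the spacer counts. As coefficients of variation in CPM, these were 66.02% for 18S, 68.0% for 28S, 16.9% for 5.8S and 11.3% for the spacers. In stiff the same coefficients were 7.21%, 9.35%, 12.6% and 0.720%. The order of soft libraries by 28S was replicate 3, 2 and 1, and by spacers replicate 2, 3 and 1.

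**Figure D4:**
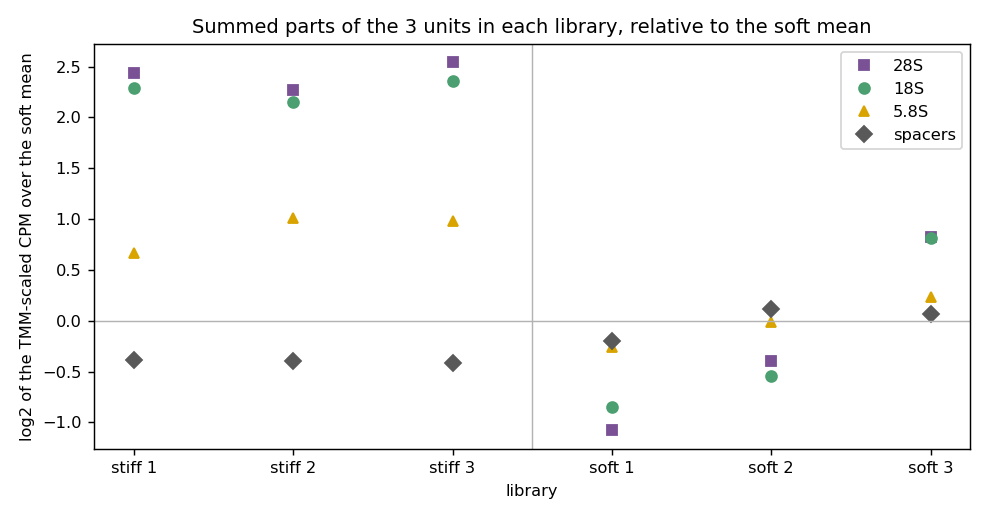
Log2 of the TMM-scaled CPM of each part, summed over the 3 units, over its mean in the soft libraries, with the 6 libraries on the horizontal axis, stiff left of soft. In stiff 28S stands at 2.27 to 2.54, 18S at 2.15 to 2.36, 5.8S at 0.67 to 1.01 and the spacers at −0.41 to −0.39, while in soft replicate 3 18S stands at 0.81 and 28S at 0.82.

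Per length, every mature part stood higher above the spacers in stiff than in soft. Summed over the units, 18S had 15719 ± 1197 counts per kb in stiff and 3414 ± 2182 in soft, 28S 14198 ± 1382 in stiff and 2776 ± 1831 in soft, and the spacers 440.0 ± 19.1 in stiff and 612 ± 70.3 in soft (SD, n = 3 each). 18S per kb was 36.0, 33.0 and 38.3 times the spacers per kb in stiff, against 3.58, 3.56 and 9.47 times in soft. 28S per kb was 32.4, 29.1 and 35.4 times the spacers in stiff, against 2.48, 3.20 and 7.74 times in soft. 5.8S per kb was 3.01, 3.83 and 3.79 times the spacers in stiff, against 1.38, 1.32 and 1.62 times in soft. Stiff and soft libraries were apart in all of these ratios, and for 5.8S the level was nearest to that of the spacers around it.

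The mature RNAs stand in equal numbers in a ribosome, but their counts per kb did not. 5.8S per kb was 0.0837, 0.116 and 0.0988 of 18S per kb in stiff, against 0.386, 0.370 and 0.171 in soft. A short row also holds reads that reach over its ends, and the part of reads that match several copies in these levels was not tested. 28S per kb was 0.901, 0.883 and 0.923 of 18S per kb in stiff, against 0.694, 0.898 and 0.817 in soft, so these groups overlapped. Its spread was 0.0200 in stiff and 0.103 in soft (SD, n = 3 each).

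The 3 units shared the counts of each part in nearly fixed proportions. In 28S, unit 1 took 37.1% to 37.8% of the counts over the 6 libraries, unit 2 32.4% to 33.0% and unit 3 29.3% to 30.4%, and the order was the same in 6 of 6 libraries. In 18S, which has 1 length in all units, the order was unit 2, unit 3, unit 1 in 6 of 6 libraries, with 36.0% to 38.2% in unit 2, 32.0% to 33.6% in unit 3 and 29.6% to 30.5% in unit 1. In the spacers it was unit 1, unit 2, unit 3 in 6 of 6 libraries, with 38.5% to 40.9% in unit 1, 31.2% to 32.6% in unit 2 and the remainder, 27.8% or more, in unit 3. The widest 95% Clopper-Pearson interval in 1 library reached 0.673 points to a side for 28S, 0.915 for 18S and 1.09 for the spacers. These intervals take each read as counted in 1 unit only. How reads that match several units were counted is not stated, so the intervals may not hold. The part of such reads in the proportions was not tested. 5.8S showed no such order, with no order in more than 2 of 6 libraries and intervals of up to 5.31 points. The unit highest in 18S was thus not the one highest in 28S. Small differences set the groups apart for unit 1 of 28S, at 37.1% to 37.4% in stiff and 37.5% to 37.8% in soft, for unit 3 of 28S, at 30.2% to 30.4% in stiff and 29.3% to 29.9% in soft, and for unit 1 of the spacers, at 38.5% to 39.9% in stiff and 40.01% to 40.9% in soft. The 45S rows, which hold the same reads, differed likewise in units 1 and 3.

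Hairpins at the units had log2 fold changes below 0, unlike the mature parts. The rows considered are all 8 others that RefSeq places on chromosome 21 between 8190000 and 8460000, a rule set after their counts were seen. MIR3648-1, inside the 5′ external spacer of unit 2 from base 2486 on, had 151, 174 and 144 counts in stiff, against 199, 276 and 222 in soft. It was the 1 row of the 8 that passed the test, where 0.451% of all genes did, and nothing is read from that count; it had a log2 fold change of −0.50 ± 0.11 (SE, 3 libraries a group, edgeR adjusted p = 0.00538). The call rested on single libraries, since the edgeR adjusted p was 0.121 without stiff replicate 3 and 0.255 without soft replicate 2, where the log2 fold changes were −0.42 and −0.37. MIR10396B, whose hairpin in the same spacer of unit 1 is printed above, had 33, 35 and 41 counts in stiff, against 50, 73 and 63 in soft (log2 fold change −0.69 ± 0.21, edgeR adjusted p = 0.130). Such counts are of reads that overlap the hairpin and do not tell a mature microRNA from the spacer around it.

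The MIR6724 copies lie outside the transcribed unit, and all 4 had log2 fold changes below 0, with edgeR adjusted p of 0.0919 to 0.891. MIR6724-2 and MIR6724-4 have the same hairpin sequence. A read wholly inside it matches both, so their counts may not be separate observations. MIR6724-4, 601 bases before the start of unit 1 and printed above, had 96, 103 and 104 counts in stiff, against 137, 158 and 143 in soft (log2 fold change −0.46 ± 0.13, edgeR adjusted p = 0.0919). MIR6724-3, 582 bases before unit 3, had 81, 78 and 67 counts in stiff, against 94, 112 and 131 in soft (log2 fold change −0.50 ± 0.15, edgeR adjusted p = 0.123). MIR6724-1, 582 bases before unit 2, had 95, 113 and 89 counts in stiff and 99, 110 and 126 in soft, which overlap (log2 fold change −0.10 ± 0.14, edgeR adjusted p = 0.891). MIR6724-2, which lies outside the 3 units, had 94, 94 and 126 counts in stiff and 142, 145 and 164 in soft, and did not pass (edgeR adjusted p = 0.103). The remaining rows, the CDC27 pseudogenes CDC27P9 and CDC27P10 between the units, had overlapping groups and log2 fold changes of 0.15 and 0.12. Over the 8 rows the median log2 fold change was −0.45, with 6 below 0.

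**Figure D5:**
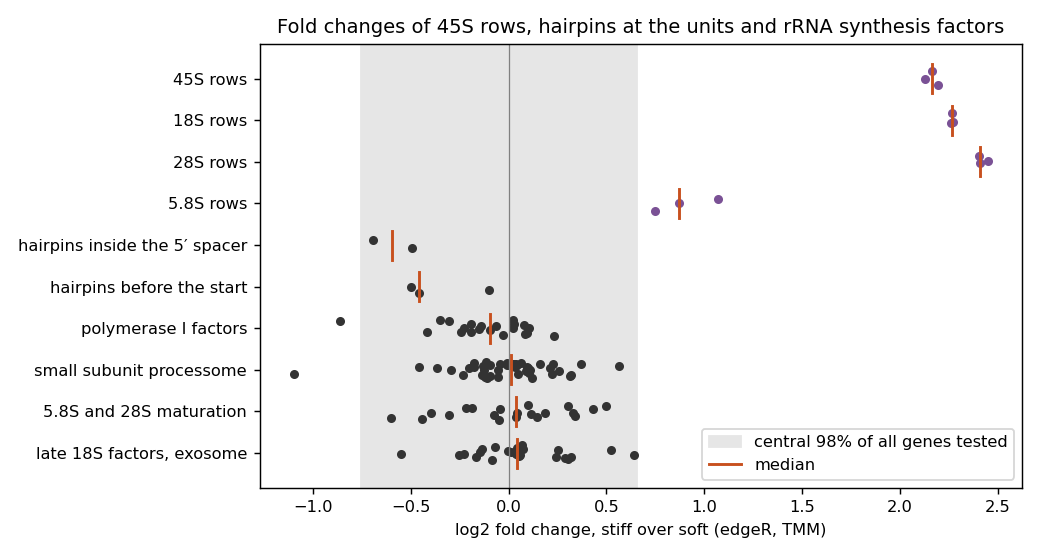
Log2 fold changes of stiff over soft from edgeR with TMM, 1 point for each row, with the median of each line in orange and the central 98% of all genes tested in grey. The 45S, 18S and 28S rows stand between 2.13 and 2.45 and the 5.8S rows between 0.75 and 1.07, while the hairpins lie below 0 and the factor lists are centred near 0.

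The RNA polymerase III RNA of the ribosome and the RNAs that act in its assembly were not higher in every stiff library. 5S, the large subunit RNA that RNA polymerase III makes from a separate gene cluster, had 17 rows, of which 10 were listed at 0 in every library. Its rows summed to 18, 20 and 30 counts in stiff and 23, 25 and 31 in soft, so the groups overlapped. The 5S copies are near-identical as well, so their counts are uncertain. Of 15 small RNAs that act in the cleavage of the precursor, among them U3 (SNORD3A and its copies) and U8 (SNORD118), 14 were under the filter on low counts. These 14 summed to 17, 20 and 18 counts in stiff and 24, 37 and 20 in soft. The single one tested, RMRP, the RNA of RNase MRP that cuts the internal spacer before 5.8S, had 14, 5 and 14 counts in stiff and 10, 10 and 13 in soft (log2 fold change 0.08 ± 0.42, edgeR adjusted p = 0.979).

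Genes for the proteins that make and trim the 45S RNA were called in neither direction. With 0.451% of all genes called, a count of 0 says nothing particular about lists of this size. Of 21 genes of RNA polymerase I and its factors 0 were called by edgeR, with a median log2 fold change of −0.09 and 1 at an unadjusted p under 0.05. POLR1A, the largest subunit of the enzyme, had 188, 192 and 209 counts in stiff and 254, 212 and 196 in soft (edgeR adjusted p = 0.840). UBTF, the factor that keeps the units open for transcription, stood at 55.3 ± 4.27 CPM in stiff and 54.6 ± 0.536 CPM in soft (SD, n = 3 each). Of 45 genes of the small subunit processome, which assembles on the 5′ external spacer, 0 were called, with a median of 0.01 and 3 at an unadjusted p under 0.05. TBL3, a member of it, had 254, 322 and 339 counts in stiff and 291, 298 and 348 in soft (edgeR adjusted p = 0.944).

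Of 20 genes that act in 5.8S and 28S maturation 0 were called, with a median of 0.04 and 5 at an unadjusted p under 0.05. DDX51, a helicase of that step, had 155, 181 and 195 counts in stiff and 167, 167 and 171 in soft (edgeR adjusted p = 0.733). NCL, the nucleolar protein nucleolin, had 102, 118 and 91 counts in stiff and 86, 69 and 77 in soft, the highest log2 fold change of the list (0.50 ± 0.15, edgeR adjusted p = 0.132). EBNA1BP2, a nucleolar assembly factor of the large subunit, had 26, 36 and 30 counts in stiff and 49, 51 and 47 in soft, the lowest of the list (−0.60 ± 0.23, edgeR adjusted p = 0.303). Of 23 genes of late 18S maturation and of the RNA exosome, which trims 5.8S and degrades spacers, 0 were called, with a median of 0.04 and 3 at an unadjusted p under 0.05. EXOSC6, an exosome subunit, had 146, 117 and 152 counts in stiff and 104, 131 and 119 in soft (edgeR adjusted p = 0.385). POLR1A, TBL3, DDX51, EXOSC6 and RMRP have the highest mean count of their lists, and UBTF, NCL and EBNA1BP2 were named after their values were seen. Over the 5 lists 12 of 110 genes tested had an unadjusted edgeR p under 0.05, against 2955 of all 31074 genes (9.51%). Limma-voom also called 0 of the 110, as did DESeq2 without its filter on mean count, while DESeq2 with that filter gave an adjusted p to 17 of them and called 0. Under library totals alone the median of all genes moved to −0.27, and 18 of the 110 were called lower and 0 higher, where 13.4% of all genes were called lower.

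The genes whose values over the 6 libraries lay closest to the summed 45S rows included RN7SL1 and RN7SL2, copies of 7SL, the RNA of the signal recognition particle. Closeness was the root mean square difference of centred log2 CPM over the 6 libraries, among 25757 genes with a mean count of at least 20 outside ribosomal RNA. It was 0.251 for LOC105378179, 0.278 for LOC107987206, 0.283 for RN7SL1, 0.304 for ANP32B, a histone chaperone, and 0.349 for RN7SL2, where the median of all genes compared was 1.26. RN7SL1 had 1042, 1106 and 1270 counts in stiff, against 115, 280 and 599 in soft. RN7SL2, which lies inside LOC105378179 on chromosome 14, had 1102, 1225 and 1304 counts in stiff, against 102, 285 and 628 in soft. LOC107987206 had 1047, 1109 and 1272 counts in stiff, against 120, 291 and 603 in soft, nearly those of RN7SL1 library by library. ANP32B had 151, 141 and 174 counts in stiff, against 36, 39 and 71 in soft. Since the 5 were picked for this likeness over the same libraries, their order of libraries and their direction between the conditions were set by the choice. For the same reason nothing is read from a test of stiff against soft in these 5.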

How the data were processed

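The authors deposited a table of unnormalized read counts for each gene symbol, with 1 column for each of 6 libraries, 3 stiff and 3 soft. Trim Galore 0.4.2, cutadapt 1.9.1, STAR 2.6.1e, featureCounts 1.6.2 and hg38 are named in the submitters' processing notes. For the annotation, the strand setting and the handling of reads that match several copies or genes, no setting was given in the sources used here. The test of stiff against soft was that of edgeR 4.0.16 in R 4.3.3, with filterByExpr, TMM factors, robust quasi-likelihood fits, two-sided F tests and Benjamini-Hochberg adjustment over the 31074 genes kept; an adjusted p under 0.05 was a call. CPM were scaled by TMM. Part lengths came from RefSeq (GRCh38.p14). Spacer counts were the 45S count less those of the mature parts. The procedure was tested on simulated data, with changes planted in random genes in both directions. The simulation set up no shift of ribosomal RNA like that seen here, so it does not cover such a shift. The labels call the libraries biological replicates without saying what was separate between them, so p-values measure the spread between these libraries. Reads were amplified by PCR with no molecular identifiers given, so intervals cover counting error only.

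The members and the gene lists were chosen with earlier results of these data known. Named in the text were all 10 members, in each list every gene past the threshold and the gene with the most counts, and the 5 genes of most like pattern; hairpins and UBTF, NCL and EBNA1BP2 were added later. Replicate numbers were taken from the titles, since in the descriptions 2 stiff libraries share a number. Alternatives were other scalings and filters, DESeq2 1.42.0, limma-voom (limma 3.58.1), a replicate block and leaving out each library.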

Additional observations from a re-analysis of the deposited data

How the results depend on the processing

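The ratio of stiff to soft in the 45S share of counts, 3.77, stayed above 1 with every total and unit tried and between 3.12 and 5.41 when each library was left out. The spacer percentage of the 45S counts, at a ratio of 0.143, ranged from 0.116 to 0.170 in the same way. The ratio of spacer counts to counts outside ribosomal RNA, 0.761, ranged from 0.716 to 0.793, and was 0.631 with all counts as the total, an alternative chosen after seeing the data, whose total holds the ribosomal RNA itself. 28S over 18S per kb, at 1.12, ranged from 1.05 to 1.19. Log2 fold changes of the 10 members had 1 sign in all 15 alternative fits; leaving out soft replicate 3 moved those of 28S to as much as 3.16 for RNA28SN3. With 140 genes called in all, the count was 60 to 136 with a library left out, 4194 (31 higher, 4163 lower) under library totals alone, 81 with DESeq2 and 46 with DESeq2 without its filter on mean count, the last chosen after seeing the data. Under library totals 5 polymerase I, 5 processome, 5 large subunit and 3 late 18S or exosome genes were called lower; in the other 14 settings 0 of these were. With a replicate block 173 genes were called. Same-numbered libraries did not deviate together (correlations from −0.00831 to 0.00155 over 25757 genes), and no library correlated best with its own number. No pairing by number was seen, but correlations of this kind may miss a weak pairing. MIR3648-1 was called in 12 of 15 alternatives, and was not without stiff replicate 3, without soft replicate 2 and in DESeq2 without its filter (adjusted p = 0.122). MIR6724-2, MIR6724-3, MIR6724-4 and MIR10396B were called lower in 1 of 15 alternatives, library totals alone. Their edgeR adjusted p there were 0.000105, 0.000373, 9.35e-05 and 0.00130, where 13.4% of all genes were called lower. Named genes that were not called and that changed sign did so under library totals alone (CDC27P9 −0.12, CDC27P10 −0.16, TBL3 −0.23, DDX51 −0.12, RMRP −0.19, UBTF −0.25), with limma-voom (RMRP −0.059) or with a library left out (RMRP −0.17 to 0.44, TBL3 −0.029 to 0.14, UBTF −0.027 to 0.080, POLR1A −0.15 to 0.019, MIR6724-1 −0.18 to 0.017), all as log2 fold changes. The 5 genes of like pattern were the same 5 with a minimum mean count of 100 and without TMM. Depth limits 5.8S, the hairpins and the small RNAs of cleavage, whose counts were 0 to 302.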
